A study of Mus musculus with 5 samples.

Results

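The potassium, calcium and volume channels described here are the products of 10 genes: Kcnma1, Kcna3, Kcnn4, Orai1, Stim1, Stim2, Trpm4, Lrrc8a, Lrrc8d and Itpr1. Each was represented by the probe set annotated with that single symbol that had the highest mean over all 5 arrays, and for Kcnma1 every such probe set was kept. Of the 10 genes, 9 were found in this way, with 10 probe sets among the 34760 of the array, and the 9 stand among 19937 genes measured. Itpr1 was not analysed here. The genes were proposed with earlier results of the same comparison known, so they were in part chosen by the measured difference between conditional and control arrays. Those differences are therefore descriptions, and an adjusted p only places a gene among all genes.

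The cells were mouse CD4 T cells with little CD44 on their surface, sorted as CD45+CD3+CD4+CD44low from the colonic lamina propria, which is the connective tissue under the gut epithelium. The 3 conditional arrays came from CD4cre/Cnb1flox mice, which carry a floxed gene for calcineurin B (Cnb1, gene symbol Ppp3r1) and a Cre recombinase driven by CD4, a driver that is also active in the thymic precursors of CD8 T cells. The 2 control arrays came from mice labelled both as control WT and as CD4neg/Cnb1flox. Read as the same floxed gene without Cre, that label has both groups share the floxed allele. The sources used here give neither age, sex and strain background nor whether an array held RNA of several mice. According to the series there were 3 independent experiments and each group had 3 to 5 mice. Since separate animals are not stated for each array, p-values measure only the spread between samples, and that spread could be technical. The study asked how calcineurin B acts on colonic T cells that are not fully differentiated.

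When a T cell meets antigen, inositol trisphosphate opens receptors of the endoplasmic reticulum such as the product of Itpr1, the store empties, and the sensors STIM1 and STIM2 open the plasma membrane channel ORAI1. Calcium entering through ORAI1 activates calcineurin, the phosphatase that sends NFAT factors to the nucleus. Potassium leaving through Kv1.3 (Kcna3) and KCa3.1 (Kcnn4) keeps the membrane negative and so sustains calcium entry, whereas TRPM4, a calcium-activated cation channel, depolarises the membrane and limits it. LRRC8 proteins form the volume-regulated anion channel that lets swollen cells release chloride and organic solutes.

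Levels are log2 signals after RMA, which corrects background, brings the arrays to one distribution and summarises the probes of a set. A difference is the conditional mean minus the control mean, fitted with limma, and a gene passed the threshold at an adjusted p under 0.05, as 83 of 19937 genes (0.416%) did. Control replicate 1 stood apart from the other arrays. For members whose result rests on it, differences are given against each control. Differences of other genes are over both controls unless stated, and some of them rest on it. Its correlation with the other arrays over all genes was 0.894 to 0.933, against 0.967 or more for every pair of the other 4 arrays. The mean log2 level of 13 measured T cell markers was 10.95, 11.04 and 11.21 in conditional replicates 1, 2 and 3, 8.47 in control replicate 1 and 11.25 in control replicate 2. Cd3e was read at 11.61 to 11.88 in the conditional arrays, 12.21 in control replicate 2 and 9.45 in control replicate 1. In control replicate 1 the 12 epithelial markers had a mean of 10.2 (7.62 to 8.44 elsewhere) and the 10 smooth muscle and interstitial cell markers a mean of 8.64 (7.0004 to 7.54 elsewhere). Fewer cells of a type and less RNA per cell cannot be told apart in such bulk samples. The targeted gene Ppp3r1 was read at 8.64 to 8.83 in conditional arrays and at 8.99 and 8.60 in control replicates 1 and 2, so the groups overlapped. Its difference was -0.05 ± 0.159 (SE, limma, adjusted p = 0.927), and its sign turned without control replicate 1 (0.15). The deleted exons are not named in the sources used here, so a probe set outside them would check nothing.

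The gene with the largest difference by this rule was Kcnma1, which encodes the pore of the BK channel, a potassium channel opened by calcium and voltage. The value came from probe set 10582545, and the array's own numbering and accessions did not place that probe set at the Kcnma1 gene. Probe set 10582545 was read at 12.29, 11.94 and 11.55 in conditional replicates 1, 2 and 3 and at 6.20 and 5.89 in control replicates 1 and 2, on the log2 scale. All conditional arrays lay far above both controls, by 5.88 ± 0.249 (SE, limma, adjusted p = 0.0112), a 58.8-fold difference in signal. Leaving out conditional replicate 1, 2 or 3 gave 5.70, 5.87 and 6.07, with an adjusted p of 0.0896, 0.267 and 0.0621 (limma). The other probe set with the symbol, 10418053, was read at 5.58, 5.35 and 5.35 in the conditional arrays, 6.95 in control replicate 1 and 5.46 in control replicate 2. Here control replicate 1 was high, while control replicate 2 lay between the conditional values. The difference for 10418053 was -0.78 ± 0.446 (SE, limma over all probe sets, adjusted p = 0.518), and its 95% confidence interval ran from -1.92 to 0.36.

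**Figure D1:**
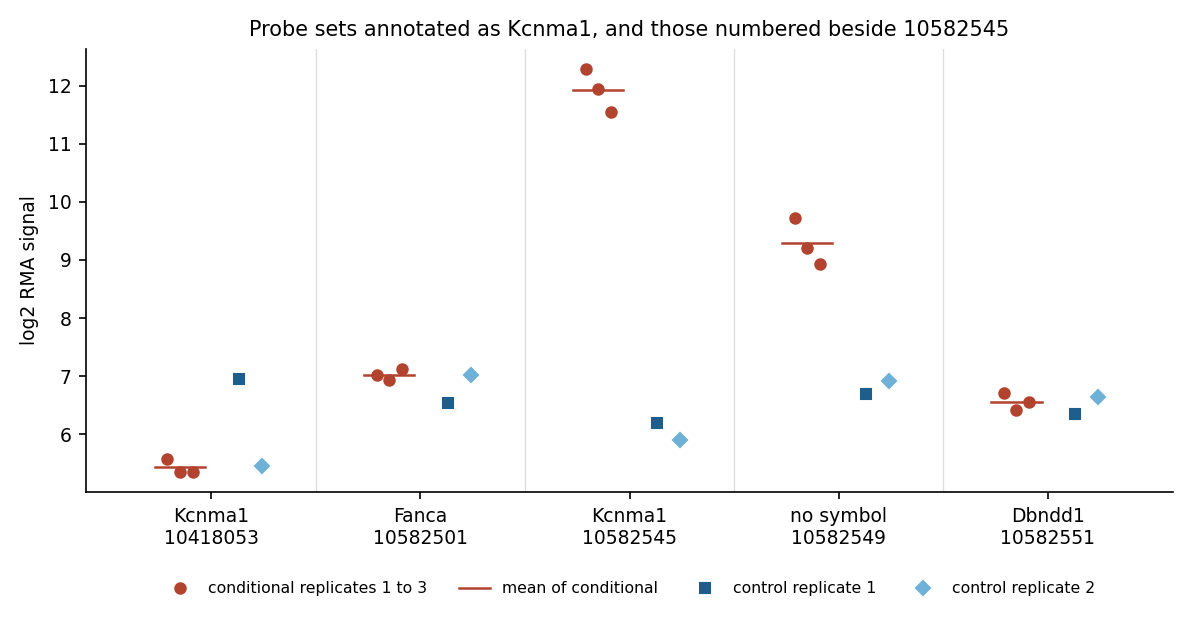
Log2 RMA signal (vertical axis) of the 2 probe sets annotated as Kcnma1 and of the 3 probe sets numbered beside 10582545, with circles for the 3 conditional arrays, a line for their mean, a square for control replicate 1 and a diamond for control replicate 2. Probe set 10582545 and the probe set without a symbol after it are high in every conditional array, while 10418053 is at 5.35 to 5.58 there.

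Probe set numbers of this array largely follow the order of genes along the chromosomes. Of 21548 probe sets with a single symbol, a chromosome and annotated neighbours on both sides, 92.3% lay between neighbours of their own chromosome (chromosomes from a RefSeq gene table, assembly GRCm38.p6). Probe set 10418053 lay between Gm10248 and Dlg5, both on chromosome 14 like Kcnma1. Probe set 10582545 lay between Fanca and Dbndd1, both on chromosome 8, and only 2.28% of probe sets had both neighbours on 1 other chromosome. Its annotation listed 4 sequence accessions, of which 0 were RefSeq transcripts, while 10418053 listed 20, of which 17 were RefSeq transcripts of Kcnma1. Listing no RefSeq transcript of the named gene was seen in 4.29% of probe sets, and both features together in 16, or 0.0743%. Of the 83 genes past the threshold, 1 rested on such a probe set, and it was Kcnma1.

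The row numbered directly after 10582545, probe set 10582549, has no gene in the annotation and was looked at after the values of its neighbour were seen. It was read at 9.72, 9.20 and 8.93 in the conditional arrays and at 6.68 and 6.91 in the controls, a difference of 2.49 ± 0.257 (SE, limma over all probe sets, adjusted p = 0.0375). The threshold of 0.05 was passed by 0.791% of all probe sets. The order of the conditional replicates was the same in both rows, with replicate 1 highest and replicate 3 lowest. The annotated genes on either side showed no such difference, at 0.24 for Fanca (adjusted p = 0.622) and 0.06 for Dbndd1 (adjusted p = 0.923). Which transcript 10582545 reads cannot be told from the sources used here, so its signal is given under its number and not as a level of Kcnma1. With Kcnma1 taken instead from a probe set that lists its RefSeq transcripts, the difference was -0.78 (limma, adjusted p = 0.489), and without control replicate 1 it was -0.03.

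The genes with the pattern most like 10582545, by root mean square distance of centred log2 values over the 5 arrays, were Il1a (0.485), Klrc1 (0.505), Clec4e (0.659), Il12rb2 (1.00454) and Acod1 (1.18). Their Pearson correlations with it were 0.985 to 0.992 over 5 arrays, a description in which all points share the same arrays. The distance keeps the size of the gap between groups, so the genes nearest to 10582545 have large gaps of their own. High correlations follow from that choice, and nothing is read from them.

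BK pores carry auxiliary subunits that set their calcium sensitivity and gating, and of 8 such genes measured 0 passed the threshold (limma, 1 at an unadjusted p under 0.05). Kcnmb4, the beta subunit best known from neurons, was read at 7.79, 8.10 and 8.68 in conditional replicates 1, 2 and 3 and at 6.57 and 6.74 in the controls. The groups did not overlap, with a difference of 1.53 ± 0.280 (SE, limma, adjusted p = 0.115), similar against control replicate 1 (1.62) and control replicate 2 (1.44). Kcnmb4os2, annotated as an opposite-strand transcript of that locus, differed by 0.74 (adjusted p = 0.139), and whether the pair shares signal was not tested. Kcnmb1, the subunit of smooth muscle, was at 6.04 to 6.24 in the conditional arrays, 6.12 in control replicate 2 and 7.15 in control replicate 1. That is the shape of probe set 10418053 and of the smooth muscle marker mean given above, and the part of smooth muscle RNA in these values was not tested. Lrrc55 had the same high value in control replicate 1 (7.96 against 6.48 to 6.98 elsewhere).

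The 2 potassium channel genes with an established part in T cell activation did not pass the threshold, and each changed its sign with the control array. Kcna3, which encodes Kv1.3, was read at 10.12, 10.16 and 10.30 in the conditional arrays, 8.52 in control replicate 1 and 10.81 in control replicate 2. The conditional values lay between the controls, 1.67 above control replicate 1 and -0.61 against control replicate 2. Over both controls the difference was 0.53 ± 0.661 (SE, limma, adjusted p = 0.793), and its 95% confidence interval ran from -1.16 to 2.22. Kcnn4, which encodes the calcium-activated channel KCa3.1, was read at 10.35, 10.53 and 10.40 in the conditional arrays, 9.34 in control replicate 1 and 10.46 in control replicate 2. The last value falls within the conditional range, so only control replicate 1 was low, and over both controls Kcnn4 differed by 0.52 ± 0.339 (SE, limma, adjusted p = 0.551). For both genes the low array was the one with the low T cell marker mean, and its part in the result was not tested. Without control replicate 1 the differences were -0.61 (limma, adjusted p = 0.0589) for Kcna3 and -0.04 (adjusted p = 0.962) for Kcnn4, and without control replicate 2 both passed as higher, at 1.67 (adjusted p = 0.00151) and 1.09 (adjusted p = 0.00345).

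**Figure D2:**
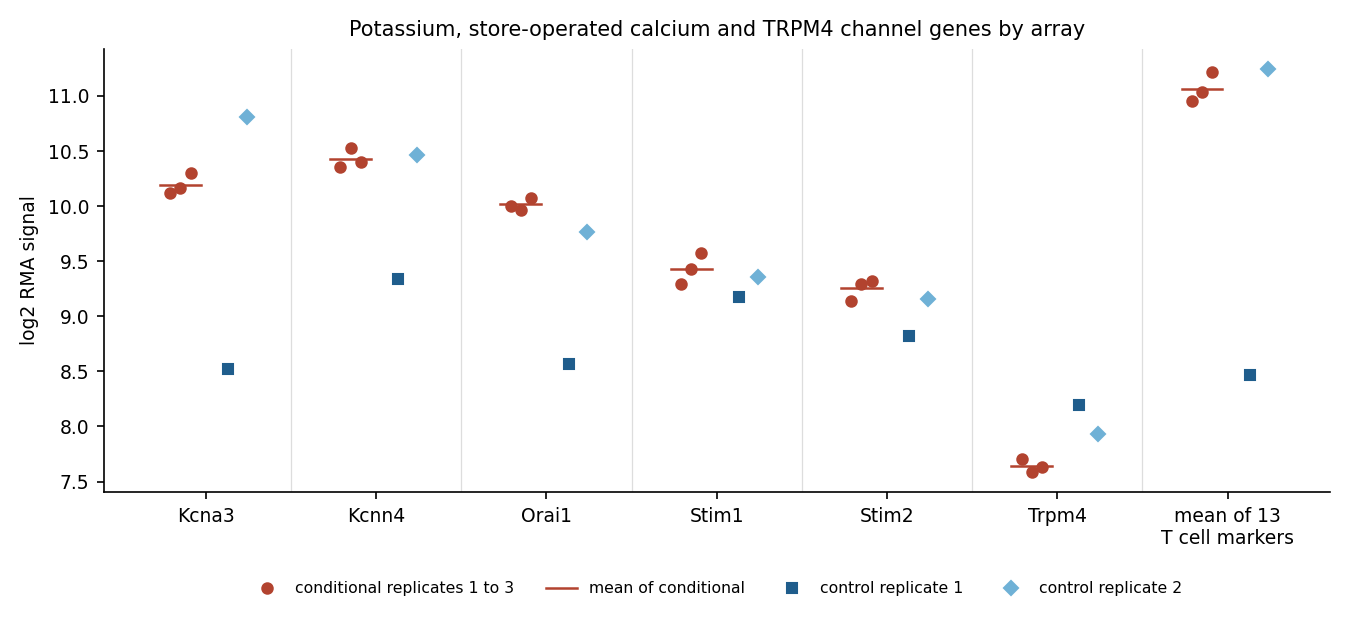
Log2 RMA signal (vertical axis) of Kcna3, Kcnn4, Orai1, Stim1, Stim2 and Trpm4, and the mean of 13 T cell markers, with circles for the 3 conditional arrays, a line for their mean, a square for control replicate 1 and a diamond for control replicate 2. The conditional circles of each gene sit close together, and for Kcna3, Kcnn4 and Orai1 control replicate 1 lies 1.12 to 2.28 below control replicate 2, as in the T cell markers, where it is at 8.47 against 11.25.

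Of the 3 genes of store-operated calcium entry, 0 passed the threshold (limma, 0 at an unadjusted p under 0.05), and the pore gene alone had groups that did not overlap. Orai1 was read at 10.001, 9.97 and 10.08 in the conditional arrays, 8.56 in control replicate 1 and 9.77 in control replicate 2, so all conditional values lay above both controls. The difference was 0.85 ± 0.359 (SE, limma, adjusted p = 0.377), or 1.45 when only control replicate 1 was used and 0.25 when only control replicate 2 was. The larger of these came from the array with the low T cell marker mean, whose part in the result was not tested. Stim1, the main calcium sensor of the store, was at 9.29, 9.43 and 9.57 in the conditional arrays and at 9.17 and 9.35 in the controls, and the groups overlapped. Its difference of 0.17 ± 0.135 (SE, limma, adjusted p = 0.636) had a 95% confidence interval from -0.18 to 0.52. Stim2, the sensor that responds to smaller losses from the store, was at 9.14, 9.30 and 9.32 against 8.82 and 9.16, a difference of 0.26 ± 0.147 (SE, limma, adjusted p = 0.485). The ORAI paralogs overlapped between groups, with Orai2 at 0.07 and Orai3 at -0.34. Itpr3, a paralog of the receptor gene that was not analysed here, had all 3 conditional values (9.29 to 9.40) below both controls (9.48 and 10.15) and differed by -0.46 (adjusted p = 0.418). Itpr2, the other paralog, overlapped, with 9.61, 9.80 and 9.61 against 9.49 and 10.81, and differed by -0.48 (adjusted p = 0.652), or by 0.18 from control replicate 1 and -1.14 from control replicate 2.

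Trpm4 was the member of the calcium-activated cation channels, and its signal was lower in every conditional array. It was read at 7.70, 7.59 and 7.63 in the conditional arrays and at 8.19 and 7.93 in control replicates 1 and 2. The groups did not overlap, with a difference of -0.42 ± 0.126 (SE, limma, adjusted p = 0.241), a level 0.747 times that of the controls that did not pass the threshold. The sign was negative against each control, at -0.55 when only control replicate 1 was used and -0.29 when only control replicate 2 was.

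The volume channel genes held the one difference past the threshold that came from a probe set placed at its own gene. Lrrc8d, the subunit that makes the channel permeable to larger organic molecules, was read at 10.23, 10.46 and 10.56 in conditional replicates 1, 2 and 3 and at 8.65 and 8.81 in control replicates 1 and 2. Every conditional array lay more than 1 log2 unit above both controls. The difference was 1.69 ± 0.143 (SE, limma, adjusted p = 0.0326), or 3.23-fold, and its 95% confidence interval ran from 1.32 to 2.05. Taken from control replicate 1 alone, the array with low T cell markers, it was 1.77, and from control replicate 2 alone it was 1.61. Its probe set lay between Lrrc8c and D830014E11Rik on chromosome 5, its own chromosome, and listed 4 RefSeq transcripts of Lrrc8d. Without conditional replicate 1, 2 or 3 the difference was 1.78, 1.67 and 1.62, and the adjusted p rose to 0.168, 0.305 and 0.193. No gene of the whole table passed in any of those 3 fits (limma, 1417 to 2037 genes at an unadjusted p under 0.05). Without control replicate 1 or 2 Lrrc8d passed, at an adjusted p of 0.00823 and 0.00189, and with array weights it did not (1.75, adjusted p = 0.119).

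Lrrc8a, the subunit that every volume-regulated channel needs, had lower signals in the conditional arrays and did not pass the threshold. It was read at 9.67, 9.65 and 9.60 in the conditional arrays and at 10.31 and 9.997 in control replicates 1 and 2. All conditional values lay below both controls, by -0.51 ± 0.132 (SE, limma, adjusted p = 0.191), and the gene passed without control replicate 2 (-0.67, adjusted p = 0.0108). Without control replicate 1 it was at -0.36 and did not pass (limma, adjusted p = 0.164). The other subunit genes were examined to complete the family, Lrrc8c and Lrrc8e after their values were seen. Lrrc8b was at 9.43, 9.53 and 9.54 against 8.57 and 8.96, a difference of 0.73 ± 0.152 (SE, limma, adjusted p = 0.138). Lrrc8c was at 11.36, 11.41 and 11.49 against 10.32 and 11.14, a difference of 0.69 (limma, adjusted p = 0.327). It was 1.10 from control replicate 1 alone and 0.28 from control replicate 2 alone. Lrrc8e, with 6.70, 6.50 and 6.51 against 7.39 and 6.66, overlapped and differed by -0.45 (adjusted p = 0.462). That difference was -0.82 from control replicate 1 alone and -0.09 from control replicate 2 alone. Lrrc8b, Lrrc8c and Lrrc8d are numbered one after the other on the array and lie on chromosome 5. In all of them the conditional arrays were above both controls, as in 17.4% of all genes. Lrrc8a and Lrrc8e lie on chromosomes 2 and 8.

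**Figure D3:**
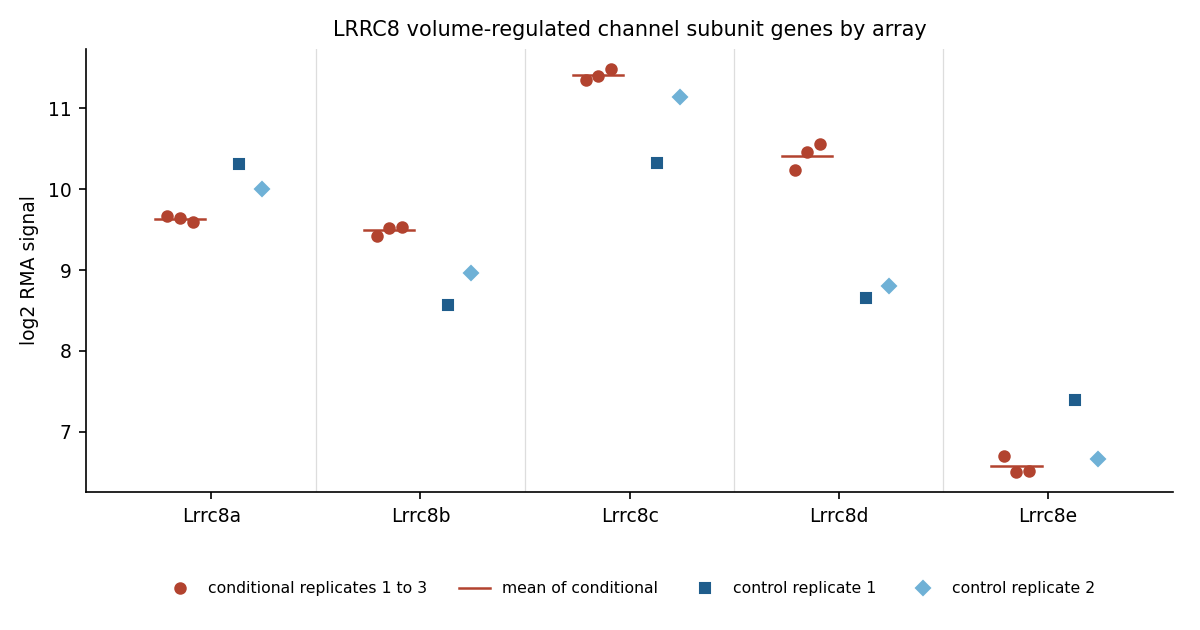
Log2 RMA signal (vertical axis) of the 5 LRRC8 subunit genes, with circles for the 3 conditional arrays, a line for their mean, a square for control replicate 1 and a diamond for control replicate 2. Lrrc8b, Lrrc8c and Lrrc8d have every conditional array above both controls, with the widest gap for Lrrc8d (10.23 to 10.56 against 8.65 and 8.81), while Lrrc8a has every conditional array below them.

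Because the LRRC8 genes differed in direction, the bases upstream of their starts were compared for the core motif of NFAT, the factor that calcineurin activates. The 250 bases before the start of each gene are shown for all 5 subunits (RefSeq, build GRCm38.p6, all on the plus strand, 5′ to 3′), with matches to GGAAA on either strand in capitals (TTTCC is the match on the other strand).
Lrrc8a, chr2:30237519-30237768: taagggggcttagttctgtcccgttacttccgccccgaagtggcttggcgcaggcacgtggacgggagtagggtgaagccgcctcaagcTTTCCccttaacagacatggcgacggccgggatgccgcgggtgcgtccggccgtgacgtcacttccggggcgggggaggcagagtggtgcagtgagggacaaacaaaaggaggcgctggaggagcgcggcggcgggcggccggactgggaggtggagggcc
Lrrc8b, chr5:105415525-105415774: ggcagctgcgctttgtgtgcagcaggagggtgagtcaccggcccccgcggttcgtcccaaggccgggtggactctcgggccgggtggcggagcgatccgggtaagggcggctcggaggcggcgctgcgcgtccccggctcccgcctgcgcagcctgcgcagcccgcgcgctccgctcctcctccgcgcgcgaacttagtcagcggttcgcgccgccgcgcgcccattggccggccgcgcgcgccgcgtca
Lrrc8c, chr5:105519221-105519470: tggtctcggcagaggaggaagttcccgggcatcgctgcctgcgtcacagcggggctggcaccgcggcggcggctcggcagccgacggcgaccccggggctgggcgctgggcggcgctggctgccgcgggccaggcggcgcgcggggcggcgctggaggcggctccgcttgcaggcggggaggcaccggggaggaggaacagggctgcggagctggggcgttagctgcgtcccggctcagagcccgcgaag
Lrrc8d, chr5:105699719-105699968: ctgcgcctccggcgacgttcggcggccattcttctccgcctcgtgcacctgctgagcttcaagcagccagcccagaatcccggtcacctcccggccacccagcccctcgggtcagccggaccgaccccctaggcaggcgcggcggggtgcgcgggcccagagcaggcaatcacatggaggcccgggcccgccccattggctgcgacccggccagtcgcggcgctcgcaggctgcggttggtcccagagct
Lrrc8e, chr8:4226577-4226826: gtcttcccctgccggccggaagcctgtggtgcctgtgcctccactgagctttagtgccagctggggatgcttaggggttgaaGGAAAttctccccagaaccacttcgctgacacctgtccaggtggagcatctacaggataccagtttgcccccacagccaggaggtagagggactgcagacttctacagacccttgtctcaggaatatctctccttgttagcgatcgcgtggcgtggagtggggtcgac
Lrrc8a and Lrrc8e held 1 match each, whose first base lay 161 and 168 bases before the start, and Lrrc8b, Lrrc8c and Lrrc8d held 0. RefSeq gives a further start for Lrrc8d, whose window (chr5:105700560-105700809) is not shown and also held 0. The motif was present in 55.6% of 32841 such windows of all genes, whose median GC content was 52.4%, against 68% for Lrrc8a, 58% for Lrrc8e and 73.2% to 78.4% for the 3 others. Over the 8 members found in the promoter table, 2 of 9 windows held the motif, the other one being that of Kcna3. These counts describe letters in a short window and no binding.

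Across the set, 2 of the 9 measured genes passed an adjusted p of 0.05, both higher, Lrrc8d and the Kcnma1 symbol through probe set 10582545, and 4 had an unadjusted p under 0.05. Among all genes 0.416% passed, 0.371% as higher and 0.0451% as lower. The groups were fully apart in 5 of the 9, with 3 higher (17.4% of all genes) and 2 lower (13.1% of all genes). The same comparison helped to choose these genes, so nothing is read from these counts. The counts and medians of this set take Kcnma1 through 10582545. With the probe set that lists its RefSeq transcripts, 10418053, 1 of the 9 passed, and the groups overlapped for Kcnma1. The median difference of the 9 was 0.52, against 0.03 over all genes, and with a single control array it was 1.09 (control replicate 1) or 0.08 (control replicate 2). Without control replicate 2, 7 of the 9 passed, in a fit where 27.5% of all genes did. The gap between the 2 controls was wider than the range of the 3 conditional arrays in 6 of the 9 genes.

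**Figure D4:**
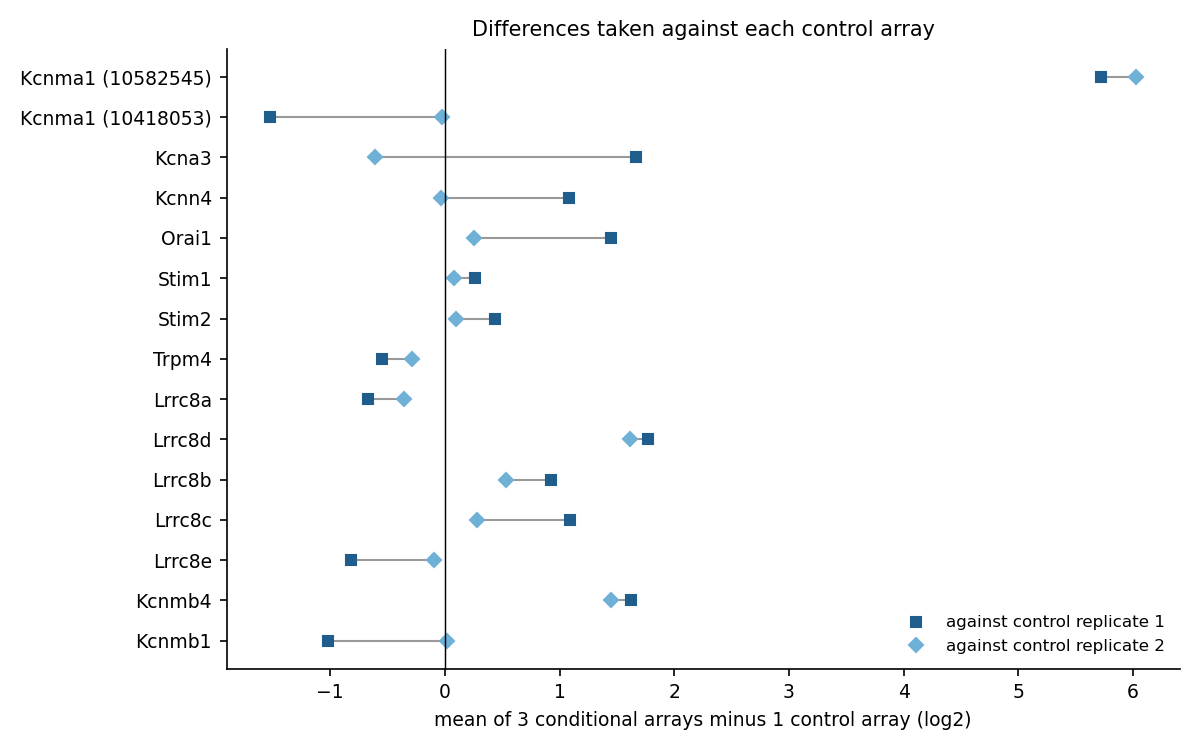
Mean of the 3 conditional arrays minus 1 control array (horizontal axis, log2) for the members and related subunit genes, with a square for control replicate 1, a diamond for control replicate 2 and a line joining them. Lrrc8d (1.61 and 1.77), Kcnmb4 and probe set 10582545 keep their size against both controls, while the line of Kcna3 crosses 0.

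Other ion channel and calcium transport genes, 212 in 7 lists, had a median difference of -0.03, against 0.03 over all genes. Of these, 0 passed the threshold (limma, 25 at an unadjusted p under 0.05), 21 had groups fully apart with conditional arrays higher and 30 lower. That is 24.1% apart, against 30.5% of all genes. Without control replicate 1, 18 of the 212 passed, where 6.10% of all genes did, and without control replicate 2, 73 passed, where 27.5% of all genes did. Among 89 further genes whose symbols begin with Kcn the median was 0.02, with 9 fully apart as higher and 7 as lower. Kcna4, which encodes the voltage-gated channel Kv1.4, was at 5.98, 5.97 and 5.68 against 5.01 and 4.94, a difference of 0.91 ± 0.138 (SE, limma, adjusted p = 0.0833).

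Calcium store and transport genes (30 measured) had a median of -0.09, with 2 fully apart as higher and 5 as lower. That is 23.3% apart, fewer than the 30.5% of all genes. Atp2a3, the endoplasmic reticulum calcium pump SERCA3 of blood cells, was at 9.26 to 9.44 in the conditional arrays and at 9.82 and 10.15 in the controls (difference -0.62, limma, adjusted p = 0.165). Tmco1, a calcium leak channel of the same membrane, differed by -0.90 (adjusted p = 0.321) and Atp2b1, a plasma membrane calcium pump, by 0.28 (adjusted p = 0.357). Tmco1 was at -1.42 from control replicate 1 alone and -0.39 from control replicate 2 alone. TRP, P2X and Piezo channel genes (31 measured) had a median of 0.01. In that list Trpv3, a heat-sensitive channel best known from skin, differed by -0.97 (adjusted p = 0.109), the lysosomal channel gene Mcoln1 by -0.67 (adjusted p = 0.175) and the mechanosensitive channel gene Piezo2 by -0.56 (adjusted p = 0.532). Piezo2 was at -1.11 from control replicate 1 alone and -0.01 from control replicate 2 alone. Voltage-gated calcium channel genes (17 measured) had a median of -0.21, or -0.27 from control replicate 1 and 0.03 from control replicate 2. Cacna1b, the N-type pore, was at 7.66, 7.76 and 7.88 against 6.92 and 6.83 (difference 0.89, limma, adjusted p = 0.0672). Cacna1f and Cacnb1 differed by 0.52 and -0.61 (adjusted p = 0.147 and 0.285).

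Chloride and volume genes other than the members (36 measured) had a median of -0.21, with 6 fully apart as higher and 11 as lower, 47.2% in all against 30.5% of all genes. Ano9, of the anoctamin family, was at 6.23 to 6.37 in the conditional arrays and at 7.10 and 7.27 in the controls (difference -0.89, limma, adjusted p = 0.0659). Clcn2, a chloride channel of epithelia and other cells, differed by -0.69 (adjusted p = 0.110). Of 5 sodium pump and proton transport genes, Atp1b1, a sodium pump subunit, was at 8.84, 9.02 and 7.71 in conditional replicates 1, 2 and 3 and at 11.33 and 10.69 in the controls. That difference of -2.48 ± 0.455 (SE, limma, adjusted p = 0.115) was the most negative of the 212 genes. Atp1b2 and the proton channel gene Hvcn1 differed by -0.44 and -0.48 (adjusted p = 0.457 and 0.516). The mean of the 12 epithelial markers moved the same way, with 8.14, 7.90 and 7.62 in the conditional arrays and 10.20 and 8.44 in control replicates 1 and 2. Of the 12, 2 fell past the threshold, Krt20 and Cdhr5, as did 0.0451% of all genes. The groups were fully apart as lower in 6 (13.1% of all genes) and overlapped in 6. Epcam and Krt18 were at -2.67 and -2.87 from control replicate 1 and at 0.19 and 1.001 from control replicate 2. The part of epithelial RNA in the values of Ano9, Clcn2 and Atp1b1 was not tested.

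Markers of other cell types that could bring channel transcripts also differed between arrays. The 11 myeloid markers had means of 7.55, 7.62 and 8.30 in the conditional arrays and 6.97 and 6.84 in the controls, led by Cd14 at 2.41 (limma, adjusted p = 0.171). Of the 11, 7 were fully apart as higher, as were 17.4% of all genes. Cd68, Fcgr1 and C1qa overlapped at 0.76, 0.27 and 0.30. Mertk overlapped at -1.27, or -2.71 from control replicate 1 and 0.17 from control replicate 2. The 9 mast cell markers had means of 6.02 to 6.18 against 5.63 and 5.66, led by Kit at 2.17 (adjusted p = 0.0615). Hdc was at 0.98, and the other 7 were at -0.02 (Ms4a2) to 0.29 (Mcpt4), with Cpa3 at 0.19, which was also the median of the 9. The 6 natural killer and innate lymphoid markers had means of 7.36 to 7.52 against 6.17 and 6.88, and Tyrobp, a signalling adaptor, rose by 1.88 (limma, adjusted p = 0.0269). Fcer1g and Klrk1 were at 1.71 and 1.72 (limma, adjusted p = 0.0501 and 0.0800). Of the 6, 3 were fully apart as higher, as were 17.4% of all genes. The defining markers Ncr1, Klrb1c and Eomes overlapped between groups and were at 0.03, 0.05 and 0.08. Eomes was at 1.37 from control replicate 1 and -1.22 from control replicate 2. Enteric nerve markers (5 measured) had means of 6.73 to 6.91 against 6.44 and 6.53, and Ret, a receptor of enteric nerve and also of some lymphoid cells, rose by 1.43 (limma, adjusted p = 0.0294). The other 4 overlapped, at -0.04 for Sox10, 0.11 for S100b, 0.12 for Elavl4 and 0.13 for Gfap. Fibroblast and endothelial markers (10 measured) had means of 8.59 to 9.49 against 10.50 and 9.15, led by Lum at -1.69. Of the 10, 5 were fully apart as lower, as were 13.1% of all genes. The fibroblast marker Pdgfra overlapped at -1.32, and the endothelial markers Cdh5, Pecam1, Vwf and Kdr overlapped at 0.61, 0.43, 0.14 and 0.05. From control replicates 1 and 2 alone, Pdgfra was at -2.51 and -0.14, and Cdh5 at -0.87 and 2.09. B cell markers (7 measured) had means of 8.01 to 8.39 against 8.67 and 9.29, led by Ms4a1 at -1.30. Ms4a1 was at -0.57 from control replicate 1 and -2.02 from control replicate 2. Of the 7, 4 were fully apart as lower (13.1% of all genes), while Cd79a, Cd79b and Blk overlapped at -0.54, -0.28 and -0.11. The largest T cell and smooth muscle marker differences were those of Trat1 (2.76) and Des (-0.91). From control replicates 1 and 2 alone, Trat1 was at 4.75 and 0.76, and Des at -1.54 and -0.29. Groups overlapped for 10 of the 13 T cell markers and for all 10 smooth muscle markers. The T cell median was 2.36 from control replicate 1 and -0.21 from control replicate 2. Whether any of these cells contributed to Lrrc8d or to 10582545 was not tested.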

How the data were processed

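Gene expression was measured on 5 Affymetrix arrays, 3 conditional and 2 control, grouped by the genotype labels. Per the labels' protocols, total RNA with an integrity number of at least 9.2 was turned into cDNA by a kit for whole transcripts and labelled with biotin. Per the submitters' processing notes, the authors made the deposited log2 signals with oligo and its RMA method, which corrects background, quantile-normalizes and summarises probes. It removes global shifts and compresses differences of dim genes. The sources used here give no versions or genome build. No call against background and no scan date was used here; precision is limited by having 5 arrays.

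Of 34760 probe sets, 21640 had 1 gene symbol in the platform annotation, 1321 had several and 11799 are unnamed here. Each of 19937 genes took its probe set with the highest mean. Groups were compared with limma 3.58.1 in R 4.3.3 (lmFit, eBayes, no covariate), with Benjamini-Hochberg adjustment over all genes, a threshold of 0.05 and 3 residual degrees of freedom. The procedure was tested on simulated data. Chromosomes came from RefSeq (GRCm38.p6) by gene number for 21550 of the 21640.

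Members and lists were chosen with earlier results of these data known. Named genes are the members, the 3 genes of smallest p per channel list, the 5 nearest to Kcnma1 in pattern, the marker with the largest difference per list, and Ppp3r1. Genes outside that rule, chosen after their values were seen, are Orai2, Orai3, Itpr2, Itpr3, Lrrc8c, Lrrc8e, Cd3e, the cell type markers beside each leading one, Fanca, Dbndd1 and probe set 10582549. The alternatives were other normalizations, filters, probe set choices, array weights, a trend in the variance prior, a block for the replicate number, leaving out each array and another threshold. The choice of probe sets by RefSeq transcript was added after the data were seen.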

Additional observations from a re-analysis of the deposited data

How the results depend on the processing

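Leaving out arrays moved the counts most. Genes past the threshold (83) ranged from 0 to 5474, members (2) from 0 to 7 and other channel genes (0) from 0 to 73, each lowest without a conditional array and highest without control replicate 2. Array weights gave 13 genes and 1 member, and a threshold of 0.1 gave 374 genes and 3 other channel genes. A second quantile normalization gave 1 other channel gene, Ano9. The mean of a gene's probe sets, the RefSeq transcript choice and the replicate block each gave 1 member (69 genes with the block). Kcnma1 was at 2.55 (limma, adjusted p = 0.0615) as the mean of its probe sets and reversed to -0.78 with the RefSeq choice, which takes 10418053. Without control replicate 1 the signs of Kcna3 (-0.61), Kcnn4 (-0.038), Kcnmb1 (0.014), Lrrc55 (0.021) and Ppp3r1 (0.15) turned, and Ppp3r1 was at 0.003 without conditional replicate 1. Leave-one-out ranges were -0.61 to 1.67 for Kcna3, -0.038 to 1.09 for Kcnn4, -1.02 to 0.014 for Kcnmb1, -1.26 to 0.021 for Lrrc55, -0.25 to 0.15 for Ppp3r1, 5.70 to 6.07 for 10582545 and 1.61 to 1.78 for Lrrc8d. Apart from the changes of sign named here, the members kept their direction under every alternative run. The causes of these changes were not tested. The labels do not say that a replicate number marks a shared experiment. With 2 controls, whose deviations from their mean mirror each other, the data cannot show whether the numbers pair the arrays, so the block is given here alone. With the replicate block Lrrc8d was at 1.62 (limma, adjusted p = 0.0773) and 10582545 at 6.07 (adjusted p = 0.000668). With 1 array left in a group, that array is assumed to vary like the others, and signal over background was not available to judge dim probe sets.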
